A study of Mus musculus with 7 samples.

Results

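The Hedgehog pathway was examined in the tumours through 8 of its genes, Shh, Ptch1, Hhip, Smo, Sufu, Gli1, Gli2 and Gli3, named by their role in the pathway. They are 8 of the 55423 features of the deposited gene table and 8 of the 24433 genes that had at least 5 reads in at least 1 tumour and were therefore tested. Bulk RNA sequencing was compared between 3 cutaneous squamous cell carcinomas (cSCC) of Ivl:BRAFV600E mice and 3 of Ivl:BRAFV600E-SOX2LSL mice, one tumour per mouse. All mice carried an inducible Cre recombinase under the promoter of involucrin (Ivl), a protein of cells committed to differentiation in the epidermis, and the BRAFV600E oncogene, which drives MAPK signalling. Ivl:BRAFV600E-SOX2LSL mice also carried a Rosa26 allele from which SOX2 and eGFP are expressed after recombination, while 2 of the 3 Ivl:BRAFV600E mice carried the tdRFP reporter. Mice were on a C57BL/6J background, recombination was induced with topical tamoxifen at 7 to 10 weeks of age according to the labels, and tumours were taken at clinical endpoint. The Ivl:BRAFV600E group held 2 females and 1 male and the Ivl:BRAFV600E-SOX2LSL group 1 female and 2 males. The Ivl:BRAFV600E-SOX2LSL tumours were all collected sooner after induction, so that genotype and time since induction cannot be told apart. Within each group the tumours are numbered here in the order of the table's columns, which carry none of the replicate numbers of the labels.

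Hedgehog proteins are secreted signals that pattern the embryo and, in skin, drive the growth of the hair follicle. A Hedgehog ligand binds Patched (PTCH1), which otherwise keeps the membrane protein Smoothened (SMO) inactive. Active SMO moves into the primary cilium and releases the GLI transcription factors from their cytoplasmic inhibitor SUFU. Gli1, Ptch1 and Hhip are themselves transcribed in response to the pathway, so that Gli1 and Ptch1 mRNA are its usual readouts, and PTCH1 and the decoy receptor HHIP feed back on the ligand. Mutations that switch the pathway on are best known in skin from basal cell carcinoma, a tumour type distinct from cSCC.

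GLI factors bind DNA at the 9-base motif GACCACCCA. These letters, read on both strands, stood in 83 of 32851 RefSeq promoter windows (GRCm38.p6, from 250 bases before to 50 bases after each start), which is 0.253%. None of the 6 Hedgehog genes with a window held them (Shh and Gli1 had no entry). The 7-base core ACCACCC, which lies within that motif, was found in 1514 windows (4.61%). Among the 6 it stood only in the window of Gli2, 205 bases before its start. The 30 bases around it are shown because they were the only match among the Hedgehog genes, at chr1:119053806-119053835 of GRCm38.p6, read on the minus strand, the strand of Gli2, with the core in capitals as it reads on the opposite strand.
Gli2: atccccctccaGGGTGGTgtccccccaccc
A match of letters is a description of the window, and binding was not measured in these tumours.

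Each tumour gave 23565432 to 31152826 counts over all genes. A level of 3 counts was used as the floor of detection and came to 0.0839 to 0.143 CPM (counts per 1 M reads, after scaling by TMM, which balances the composition of the libraries). This floor covers counting error only. Sox2 was found at 0.716, 0.508 and 0.238 CPM in the Ivl:BRAFV600E tumours and at 182, 155 and 158 CPM in the Ivl:BRAFV600E-SOX2LSL tumours, and EGFP at 0 reads and at 139, 110 and 113 CPM, as their labels say. The 8 keratinocyte markers summed to between 85636 and 131613 CPM in the Ivl:BRAFV600E tumours and to between 14027 and 50807 CPM in the Ivl:BRAFV600E-SOX2LSL tumours. These sums are made largely of a few abundant keratins: Krt1, Krt10, Krt14, Krt6a and Ivl had log2 fold changes of -2.24, -3.06, -0.65, -1.02 and -0.64, and Krt5, Trp63 and Dsg3 of 0.29, 0.10 and 0.69. The median was -0.64, and 0 of the 8 markers passed the test. All tumours held keratinocyte RNA. The 10 skeletal muscle markers summed to 1.09 to 3.66 CPM and to 194 to 906 CPM. All 9 that could be tested had a log2 fold change above 0, and 7 of these passed the test.

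No Hedgehog gene passed the test between the genotypes. With edgeR's quasi-likelihood test and Benjamini-Hochberg adjustment over all genes, 0 of 8 had an adjusted p under 0.05, against 3.90% of all genes tested (954 of 24433, of which 585 or 2.39% were higher and 369 or 1.51% lower in Ivl:BRAFV600E-SOX2LSL tumours) and 6.02% of the 14430 genes with a mean of at least 1 CPM, and 1 of 8, Gli3, had an unadjusted p under 0.05, against 25.7% of all genes. A share of 3.90% leaves little room for a count among 8 genes, so that 0 of 8 is near the background. DESeq2, which gave no adjusted p for Shh, called 0 of the other 7, against 3653 of 24433 genes. With sample weights, limma voom called 0 of 8, against 2142 of 24433 genes. The levels of the groups did not overlap for 2 of 8, Smo and Gli3, both higher with SOX2, against 34.2% of all genes (18.2% higher and 16.0% lower) and 43.7% of those with a mean of at least 1 CPM. The median log2 fold change was -0.15 over the Hedgehog genes and 0.04 over all genes. In bulk tumours, fewer cells of a type and less RNA per cell cannot be told apart.

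**Figure D1:**
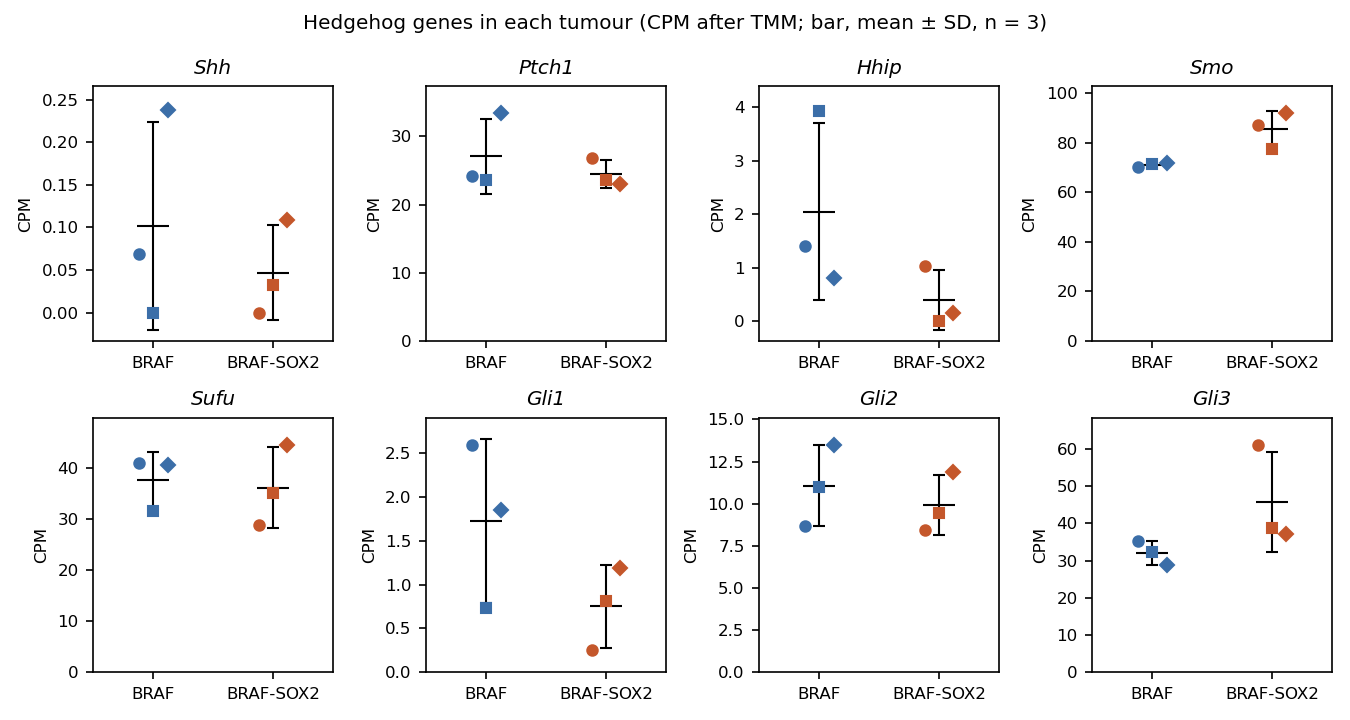
CPM after TMM (vertical axis, linear) of the 8 Hedgehog genes in the 3 Ivl:BRAFV600E (BRAF, blue) and 3 Ivl:BRAFV600E-SOX2LSL (BRAF-SOX2, orange) tumours; circle, square and diamond are tumours 1, 2 and 3, and bars are the mean ± SD, n = 3. The groups are apart for Smo and Gli3 and overlap for the other 6 genes, and Gli1 and Hhip vary several-fold within a group.

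The order of the genes in level per length of exon was nearly the same in both genotypes. Smo was the highest in all 6 tumours, at 12.5 to 16.3 CPM per kb. Sufu (3.74 to 5.78 CPM per kb), Gli3 (3.01 to 6.37), Ptch1 (1.63 to 2.35) and Gli2 (1.23 to 1.96) followed. Gli1 (0.0504 to 0.519), Hhip (0 to 0.433) and Shh (0 to 0.0834) were the lowest. Of the neighbours in this order, Smo exceeded Sufu, Gli3 exceeded Ptch1 and Gli2 exceeded Gli1 in 6 of 6 tumours. Sufu and Gli3 were not separated: Sufu was the higher in 5 of 6 tumours, but by group mean Gli3 was the higher in Ivl:BRAFV600E-SOX2LSL tumours (4.76 against 4.69 CPM per kb) and Sufu in Ivl:BRAFV600E tumours (4.89 against 3.35 CPM per kb). Ptch1 exceeded Gli2 in 5 of 6 tumours and Gli1 exceeded Hhip in 4 of 6, so these pairs were not separated in every tumour either. The genes that make up the receiving machinery were thus detected in every tumour, while the ligand gene and 2 of the 3 transcriptional outputs, Gli1 and Hhip, were scarce.

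**Figure D2:**
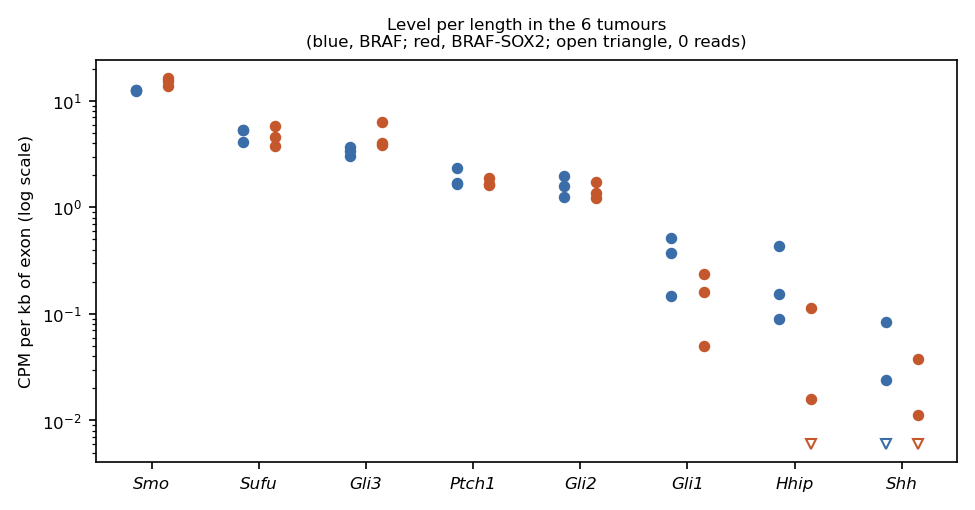
Level of each Hedgehog gene in CPM per kb of exon (vertical axis, log scale) in the 3 Ivl:BRAFV600E (blue) and 3 Ivl:BRAFV600E-SOX2LSL (red) tumours, ordered by level; a point is a tumour, and an open triangle at the bottom of the axis is a tumour with 0 reads. Smo is at the top in all 6 tumours, and Gli1, Hhip and Shh lie below the other 5 genes.

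Shh (ENSMUSG00000002633, chr5:28456815-28467256 of GRCm38, minus strand), which encodes the Sonic hedgehog ligand, had 2, 0 and 5 reads in the Ivl:BRAFV600E tumours and 0, 1 and 3 reads in the Ivl:BRAFV600E-SOX2LSL tumours. A single tumour, Ivl:BRAFV600E tumour 3, exceeded the floor of 3 counts, and 1 tumour of each group had no read. No fold is given at this depth (adjusted p = 0.669), and a difference was not detectable. Exons of 2 antisense transcripts overlap 807 bases of Shh, and whether strand was used in counting is not stated, so even these few reads are uncertain.

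The other ligands were also scarce. Ihh, the Indian hedgehog gene, had 6, 0 and 0 reads against 0, 3 and 2 reads. Dhh, the Desert hedgehog gene, had 13, 7 and 12 reads against 81, 8 and 13, so that 1 Ivl:BRAFV600E-SOX2LSL tumour, tumour 1, stood above the other 5 (adjusted p = 0.398). Exons of other genes, Rhebl1 on the same strand among them, overlap 1653 bases of Dhh, so its reads are uncertain too. Of the 8 other genes of ligand production and release, 0 passed the test, against 3.90% of all genes. Their median log2 fold change was 0.80 and 6 of the 8 were above 0, against 0.04 and 12904 of 24433 over all genes. Among the 6, Dhh and Scube2 had few reads and were high mainly in Ivl:BRAFV600E-SOX2LSL tumour 1. Scube2, named after its values were seen, had 1, 0 and 8 reads against 56, 2 and 9. Disp1, which encodes the transporter that releases lipid-modified ligand, was at 4.02, 2.91 and 4.32 CPM and at 11.7, 6.38 and 6.72 CPM. The groups did not overlap, the log2 fold change was 1.14 (SE 0.31), and the adjusted p was 0.081 with edgeR and 0.012 with DESeq2. Scube3, whose family of secreted proteins helps to solubilise the ligand, was at 1.64, 0.600 and 2.66 CPM and at 5.85, 2.62 and 3.76 CPM, with groups that overlapped (log2 fold change 1.32, adjusted p = 0.185).

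Ptch1 (ENSMUSG00000021466, chr13:63508328-63573598, minus strand), the receptor and a transcriptional readout, was at 24.2, 23.6 and 33.4 CPM in the Ivl:BRAFV600E tumours and at 26.8, 23.6 and 23.1 CPM in the Ivl:BRAFV600E-SOX2LSL tumours. Only Ivl:BRAFV600E tumour 3 stood above the rest, and the groups overlapped. The log2 fold change was -0.14 (SE 0.17, 95% interval -0.55 to 0.27, edgeR adjusted p = 0.640), and without that tumour it was 0.035. Across the 6 tumours Ptch1 varied little, with an SD of 0.20 on the log2 CPM scale, wider than that of 25.2% of genes with a mean of at least 1 CPM.

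Hhip (ENSMUSG00000064325, chr8:79965851-80058006, minus strand), the decoy receptor, was the most variable of the 8. It was at 1.40, 3.93 and 0.808 CPM in the Ivl:BRAFV600E tumours, from 41, 85 and 17 reads, and at 1.03, 0 and 0.144 CPM in the Ivl:BRAFV600E-SOX2LSL tumours, from 37, 0 and 4 reads. Tumour 1 of the Ivl:BRAFV600E-SOX2LSL group lay above the lowest Ivl:BRAFV600E tumour, so the groups overlapped. The fitted log2 fold change was -2.33 (SE 1.18, 95% interval -5.10 to 0.45, adjusted p = 0.262). With each tumour left out in turn it ranged from -4.79 to -1.45, and over all alternatives its adjusted p ranged from 0.0559 to 0.557.

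Of the 5 other receptor and co-receptor genes tested, 1 passed the test, against 3.90% of all genes. Gpc3 (ENSMUSG00000055653, chrX:52272426-52613950, minus strand), a cell-surface glypican that binds Hedgehog and is known to compete with Patched for it, was at 1.84, 1.66 and 1.81 CPM in the Ivl:BRAFV600E tumours and at 6.38, 8.61 and 15.9 CPM in the Ivl:BRAFV600E-SOX2LSL tumours. The Ivl:BRAFV600E tumours were close to one another, and every Ivl:BRAFV600E-SOX2LSL tumour was above them. It was 5.79-fold higher with SOX2 (log2 fold change 2.53, SE 0.37, 95% interval 1.67 to 3.39, edgeR adjusted p = 0.024). Gpc3 lies on the X chromosome, and with sex as a covariate its log2 fold change was 2.63 (adjusted p = 0.031). Cdon, a co-receptor that promotes ligand binding, was at 17.2, 8.59 and 19.7 CPM and at 18.6, 21.4 and 14.7 CPM, with groups that overlapped (log2 fold change 0.27, adjusted p = 0.624). Boc and Gas1, the other co-receptors of this kind, had log2 fold changes of -0.23 and 0.02. Lrp2 had too few reads to be tested.

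Smo (ENSMUSG00000001761, chr6:29735503-29761365, plus strand), the signal transducer, was at 70.2, 71.2 and 71.6 CPM in the Ivl:BRAFV600E tumours and at 87.1, 77.6 and 91.8 CPM in the Ivl:BRAFV600E-SOX2LSL tumours. The Ivl:BRAFV600E values were nearly equal and the groups did not overlap, but the difference was small and did not pass the test. The log2 fold change was 0.27 (SE 0.12, 95% interval -0.0029 to 0.54, unadjusted p = 0.052, edgeR adjusted p = 0.198), which is 1.20-fold. Sufu (ENSMUSG00000025231, chr19:46396896-46488804, plus strand), the inhibitor of the GLI proteins, was at 40.8, 31.5 and 40.6 CPM and at 28.8, 35.1 and 44.4 CPM. The Ivl:BRAFV600E tumours lay within the range of the Ivl:BRAFV600E-SOX2LSL tumours, and the log2 fold change was -0.06 (SE 0.19, 95% interval -0.52 to 0.40, adjusted p = 0.872).

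SMO signals from the primary cilium, and all 12 genes of the list of cilium proteins and regulators of SMO had a log2 fold change above 0, under each scaling and with each tumour left out in turn. The list was chosen with earlier results of these data known, and these fits share most of their tumours. The common sign is therefore a description and not an independent result. The median of the 12 was 0.41, against 0.04 over all genes, of which 12904 of 24433 were above 0. Only 1 of the 12 passed the test, against 3.90% of all genes. DESeq2, which called 3653 of 24433 genes in all, called 4 of the 12 (Arl13b, Gpr161, Ift172 and Tulp3). Arl13b (ENSMUSG00000022911, chr16:62793685-62847040, minus strand), a small GTPase of the ciliary membrane, was at 7.84, 9.05 and 11.0 CPM in the Ivl:BRAFV600E tumours and at 16.6, 15.8 and 17.6 CPM in the Ivl:BRAFV600E-SOX2LSL tumours. It was 1.79-fold higher with SOX2, with no overlap (log2 fold change 0.84, SE 0.18, edgeR adjusted p = 0.049). The call was lost with the size factors of DESeq2 in edgeR (adjusted p = 0.051) and with upper-quartile scaling (adjusted p = 0.065). Ift172, a component of the transport particle that builds the cilium, was at 11.1, 9.10 and 11.1 CPM and at 16.1, 14.1 and 16.5 CPM. Here too the groups were apart, but the adjusted p was 0.087 with edgeR and 0.020 with DESeq2 (log2 fold change 0.58 with edgeR). For 7 of the 12 genes the levels did not overlap, all higher with SOX2, against 34.2% of all genes (18.2% in that direction) and 43.7% of genes with a mean of at least 1 CPM.

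**Figure D3:**
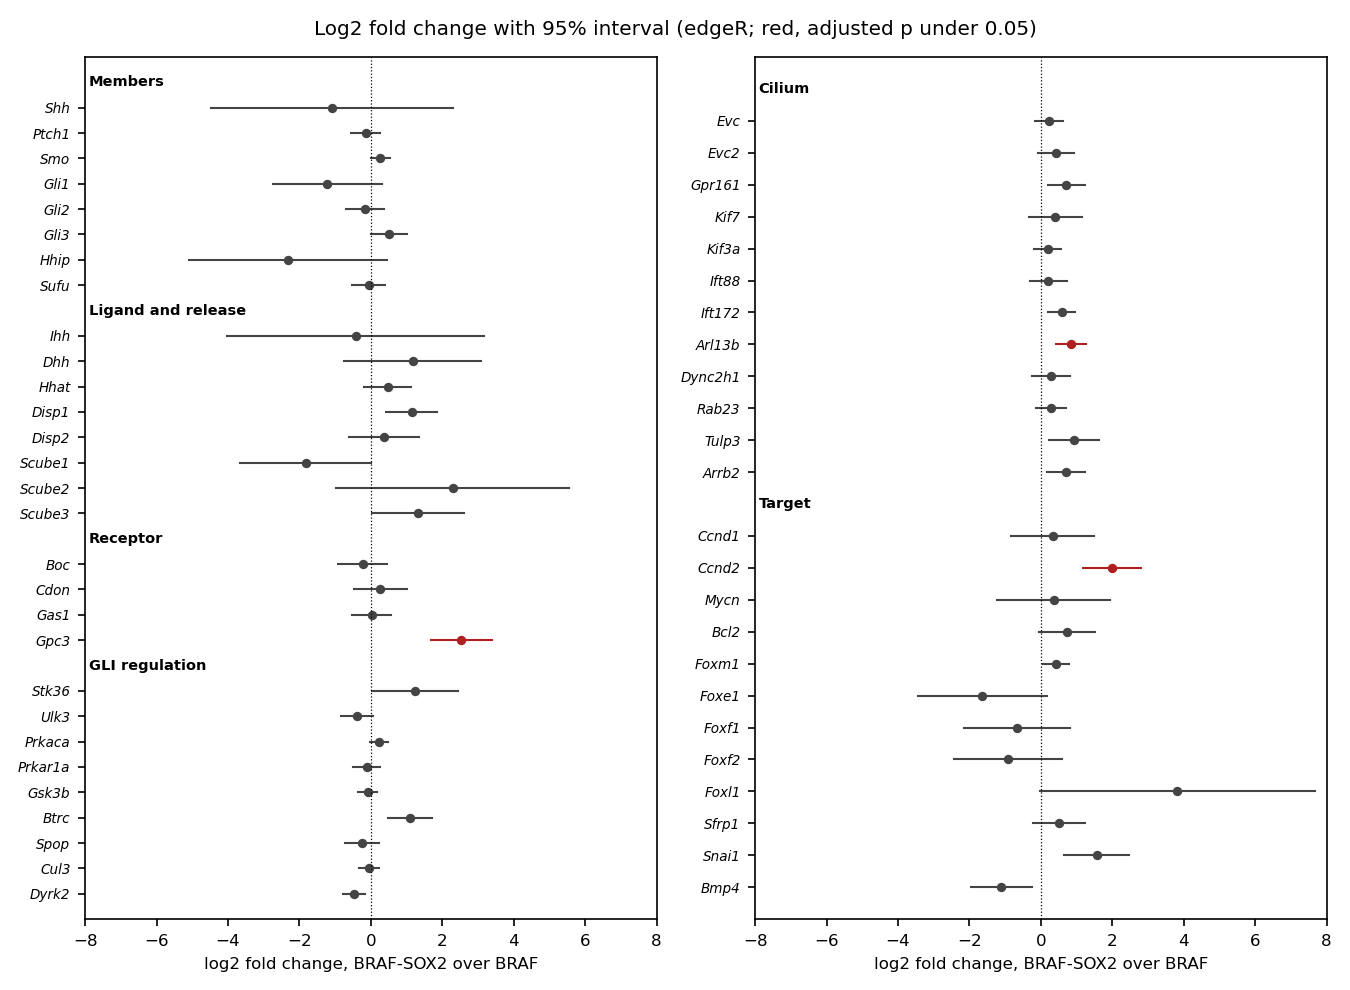
Log2 fold change of Ivl:BRAFV600E-SOX2LSL over Ivl:BRAFV600E tumours (horizontal axis) with its 95% interval for the 8 Hedgehog genes (Members) and the other pathway genes tested, except a gene not reported here, grouped by role; n = 3 tumours per group, red where the edgeR adjusted p is under 0.05. The intervals of Ptch1, Smo, Gli2 and Sufu are narrow and near 0, those of Shh, Gli1 and Hhip are wide, and Gpc3, Arl13b and Ccnd2 are in red.

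None of the 3 GLI genes passed the test, and their fold changes differed in sign. Gli1 (ENSMUSG00000025407, chr10:127329882-127341974, minus strand), the activator that is itself a target, was at 2.59, 0.739 and 1.85 CPM in the Ivl:BRAFV600E tumours and at 0.252, 0.810 and 1.19 CPM in the Ivl:BRAFV600E-SOX2LSL tumours, from 9 to 76 reads. The groups overlapped, because Ivl:BRAFV600E tumour 2 was lower than 2 of the Ivl:BRAFV600E-SOX2LSL tumours. The log2 fold change was -1.22 (SE 0.65, 95% interval -2.75 to 0.32, edgeR adjusted p = 0.285). It stayed below 0 under every alternative, from -1.71 to -0.79, with adjusted p between 0.222 and 0.586. Exons of 2 antisense genes, Arhgap9 and Gm47200, overlap 327 bases of Gli1.

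Gli2 (ENSMUSG00000048402, chr1:118834132-119053619, minus strand), the main activator in many tissues, was at 8.69, 11.0 and 13.5 CPM and at 8.45, 9.46 and 11.9 CPM. The groups overlapped, with a log2 fold change of -0.16 (SE 0.23, 95% interval -0.69 to 0.38, adjusted p = 0.701). Gli3 (ENSMUSG00000021318, chr13:15463235-15730026, plus strand), whose processed form is the main repressor of targets, was at 35.3, 32.2 and 28.8 CPM in the Ivl:BRAFV600E tumours and at 61.1, 38.8 and 37.1 CPM in the Ivl:BRAFV600E-SOX2LSL tumours. The groups did not overlap, although the lowest Ivl:BRAFV600E-SOX2LSL tumour was close to the highest Ivl:BRAFV600E tumour. The log2 fold change was 0.51 (SE 0.21, 95% interval 0.0027 to 1.01, unadjusted p = 0.049, edgeR adjusted p = 0.192), and it was 0.24 to 0.64 with each tumour left out in turn, lowest without Ivl:BRAFV600E-SOX2LSL tumour 1.

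Set against one another per length, Gli3 exceeded Gli1 in every tumour. The ratio of Gli3 to Gli1 in CPM per kb was 7.10, 22.7 and 8.11 in the Ivl:BRAFV600E tumours and 126, 25.0 and 16.2 in the Ivl:BRAFV600E-SOX2LSL tumours. The groups overlapped, since Ivl:BRAFV600E tumour 2 was above Ivl:BRAFV600E-SOX2LSL tumour 3. Of the summed level of the 3 GLI genes, Gli1 took 9.49%, 2.90% and 6.94% in the Ivl:BRAFV600E tumours and 0.659%, 2.90% and 4.09% in the Ivl:BRAFV600E-SOX2LSL tumours. Gli3 took over 50% in every tumour, from 56.3% to 83.3%. These are mRNA levels, and processing of GLI3 protein was not measured.

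Of the 9 genes that regulate the GLI proteins, 0 passed the test, against 3.90% of all genes, and the median log2 fold change was -0.09, against 0.04 over all genes. The 2 with the smallest p had fold changes of opposite sign. Btrc, a subunit of the ubiquitin ligase that marks GLI proteins for processing, was at 3.48, 3.002 and 3.90 CPM and at 9.65, 6.93 and 5.52 CPM (log2 fold change 1.09, adjusted p = 0.066). Dyrk2, a kinase reported to act on GLI2 stability, was at 59.4, 63.1 and 65.6 CPM and at 50.7, 43.7 and 40.8 CPM (log2 fold change -0.48, adjusted p = 0.080). Neither pair of groups overlapped, and neither gene passed the threshold with edgeR. Both passed it with DESeq2 (adjusted p = 0.0055 for Btrc and 0.022 for Dyrk2) and with limma voom (0.045 and 0.031). Dyrk2 also passed it with upper-quartile scaling (0.046) and without Ivl:BRAFV600E-SOX2LSL tumour 1 (0.029).

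Of the 12 other genes described as Hedgehog targets, 1 passed the test, against 3.90% of all genes, which is near the background for so short a list. Ccnd2 (ENSMUSG00000000184, chr6:127125162-127152193, minus strand), which encodes the cell cycle protein cyclin D2, was at 48.4, 27.9 and 57.1 CPM in the Ivl:BRAFV600E tumours and at 251, 126 and 152 CPM in the Ivl:BRAFV600E-SOX2LSL tumours. Every Ivl:BRAFV600E-SOX2LSL tumour was above every Ivl:BRAFV600E tumour, by 3.96-fold between the groups (log2 fold change 1.99, SE 0.35, edgeR adjusted p = 0.032). Exons of 2 antisense transcripts overlap 740 bases of Ccnd2. Snai1, a transcription factor of epithelial-mesenchymal transition, was at 1.30, 1.99 and 0.903 CPM and at 5.62, 3.14 and 3.57 CPM, with no overlap and an edgeR adjusted p of 0.069 (log2 fold change 1.56). Snai1 passed the threshold with DESeq2 (adjusted p = 0.0037), limma voom (0.038) and no filter on low counts (0.047). Ccnd2 and Snai1 answer to several pathways and are not specific readouts of Hedgehog signalling. Fold changes of the targets were of both signs: 8 of 12 had a log2 fold change above 0. Of these, Ccnd1 and Foxl1 were high mainly in Ivl:BRAFV600E-SOX2LSL tumour 1. Ccnd1 was at 127, 101 and 99.6 CPM and at 264, 79.2 and 69.1 CPM. Foxl1 had 0, 1 and 1 reads against 45, 2 and 1. Bmp4, a growth factor, had the smallest p among those below 0. Its log2 fold change was -1.11 (edgeR adjusted p = 0.119), with no overlap between the groups and a call with DESeq2. Ccnd1, Foxl1 and Bmp4 were chosen after their values were seen.

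**Figure D4:**
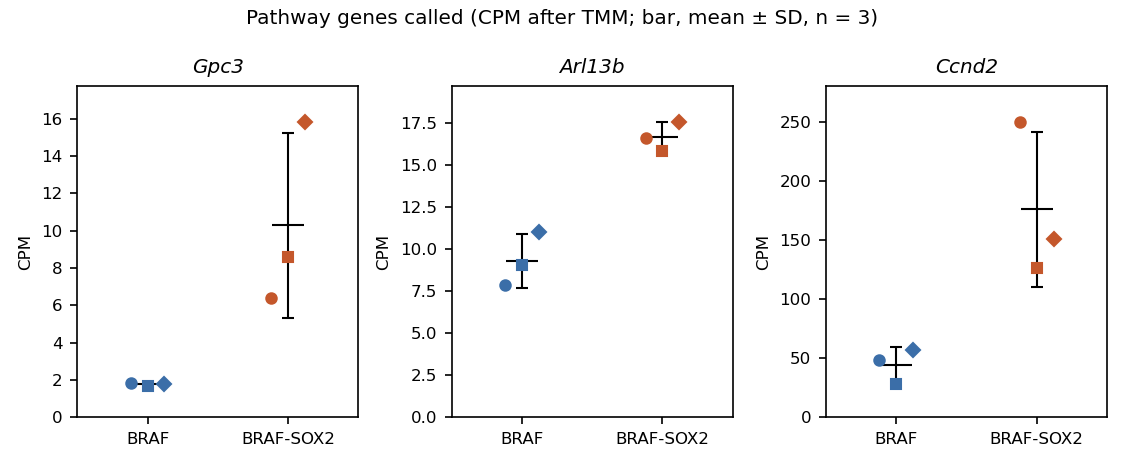
CPM after TMM (vertical axis, linear from 0) of the 3 other pathway genes that passed the test, in Ivl:BRAFV600E (BRAF, blue) and Ivl:BRAFV600E-SOX2LSL (BRAF-SOX2, orange) tumours; circle, square and diamond are tumours 1, 2 and 3, and bars are the mean ± SD, n = 3. For Gpc3, Arl13b and Ccnd2 every Ivl:BRAFV600E-SOX2LSL tumour lies above every Ivl:BRAFV600E tumour.

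Over all roles, 3 of the 46 other pathway genes tested passed the test, all 3 higher with SOX2, against 3.90% of all genes (2.39% in that direction) and 6.02% of genes with a mean of at least 1 CPM. Their median log2 fold change was 0.35. The calls of Ccnd2 and Arl13b were lost with sex as a covariate, at log2 fold changes of 1.86 and 0.81, and all 3 calls were lost without any one of the Ivl:BRAFV600E tumours or without Ivl:BRAFV600E-SOX2LSL tumour 2. Those of Ccnd2 and Arl13b were also lost without Ivl:BRAFV600E-SOX2LSL tumour 3. With each tumour left out the log2 fold changes were 2.08 to 2.78 for Gpc3, 1.64 to 2.21 for Ccnd2 and 0.73 to 0.98 for Arl13b, and the calls over all genes were 22 to 412 in the 5 of these fits in which a call was lost. The summed level of the 7 fibroblast markers was 728 to 5037 CPM in the Ivl:BRAFV600E tumours and 3906 to 8188 CPM in the Ivl:BRAFV600E-SOX2LSL tumours, which overlapped, with 0 of 7 called. That of the 6 immune markers was 58.6 to 122 CPM and 131 to 421 CPM, which did not overlap, with 2 of 6 called, both higher with SOX2. The 7 sebaceous markers summed to 26.3 to 68.5 CPM and to 72.3 to 127 CPM, which did not overlap. Of these, 1 was called, Cidea, lower with SOX2, and the median log2 fold change was 1.32. The part of fibroblast, immune and sebaceous RNA, and that of the muscle and keratinocyte RNA given above, in the levels of Gpc3, Arl13b and Ccnd2 was not tested.

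Shh and Gli1 are known to be active in growing hair follicles, and markers of the hair shaft and inner root sheath differed widely between the tumours of each group. The summed level of the 9 markers in the table was 169, 8.96 and 398 CPM in the Ivl:BRAFV600E tumours and 12.03, 44.7 and 194 CPM in the Ivl:BRAFV600E-SOX2LSL tumours. The groups overlapped and 0 of 9 passed the test. Of these markers, Krt28 and Krt35 had no read in 2 tumours, Ivl:BRAFV600E tumour 2 and Ivl:BRAFV600E-SOX2LSL tumour 1, which were the tumours with the lowest summed level. Most of the sum in these 2 was Tchh, at 7.62 and 11.5 CPM. The same 2 tumours had the lowest Gli1 of their group, at 0.739 and 0.252 CPM, and were the 2 with no read of Shh. Hhip, by contrast, was the highest of its group in each of these tumours, at 3.93 and 1.03 CPM. The 6 dermal papilla markers, of cells that answer Hedgehog signals below the follicle, summed to 12.8, 13.8 and 18.7 CPM and to 61.2, 19.2 and 24.0 CPM, which did not overlap, with 0 of 6 called. Most of this sum was Crabp1 (59.0 CPM in Ivl:BRAFV600E-SOX2LSL tumour 1), and the median log2 fold change of the 6 was 0.44. The 7 follicle stem cell markers summed to 186, 210 and 227 CPM and to 154, 145 and 167 CPM, which did not overlap, with 1 of 7 called, Tbx1 (log2 fold change -3.92, adjusted p = 0.017). The lower sum was carried by Tbx1, at 47.2, 112 and 79.2 CPM against 2.57, 7.87 and 5.31 CPM, and the median log2 fold change of the 7 was 0.19. The part of hair follicle RNA in the levels of Gli1, Shh and Hhip was not tested.

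**Figure D5:**
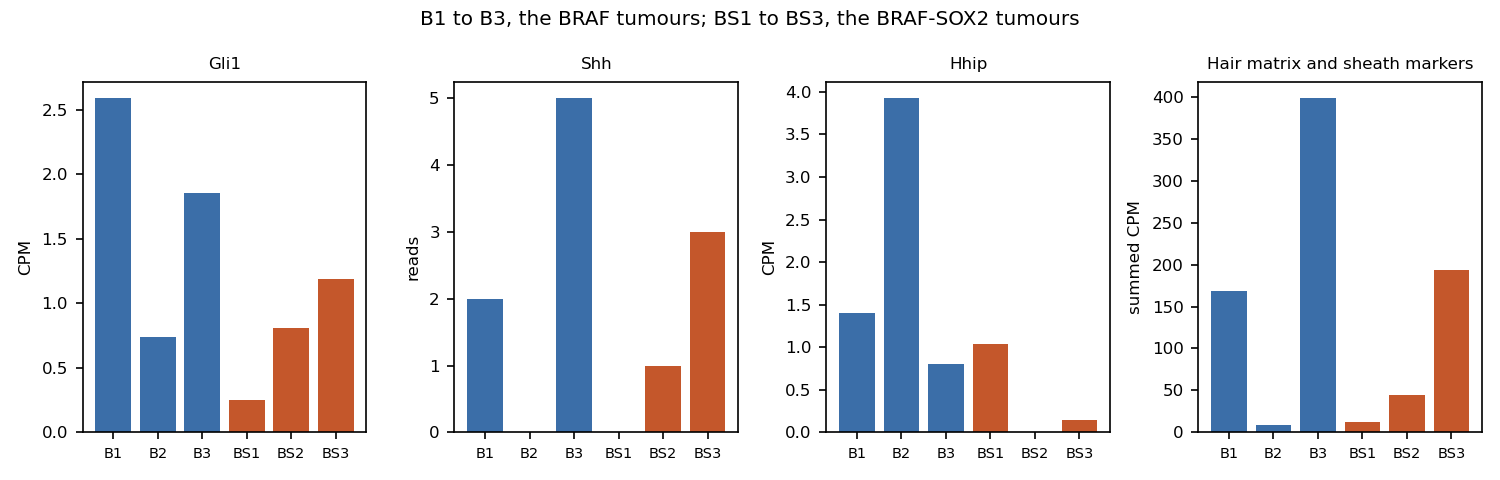
Gli1 and Hhip (CPM after TMM), Shh (reads) and the summed CPM of 9 hair shaft and sheath markers (titled hair matrix and sheath), one bar per tumour on linear axes from 0. B1 to B3 are the Ivl:BRAFV600E tumours (blue) and BS1 to BS3 the Ivl:BRAFV600E-SOX2LSL tumours (orange). In B2 and BS1 the hair markers (8.96 and 12.03 CPM), Gli1 and Shh are the lowest of their group and Hhip is the highest.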

How the data were processed

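RNA of mouse skin tumours was sequenced after depletion of ribosomal RNA, at 1 library per tumour. Per the labels, reads were checked with FastQC 0.11.8, trimmed with Trim Galore, aligned to GRCm38 with HISAT2 2.1.0 and counted with featureCounts of Subread 1.6.3. The authors deposited raw read counts per gene, without normalisation. The columns are named by mouse. They were assigned to the genotypes from the list of mice in the study's Source Data, which also gives sex and alleles, and 1 column that matched no listed mouse was not used. The labels list 4 Ivl:BRAFV600E tumours, of which 3 could be assigned.

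Genes that reached 5 reads in any 1 tumour were kept, scaled by TMM and tested on the counts with edgeR 4.0.16 (R 4.3.3; quasi-likelihood test, genotype as the only factor, Benjamini-Hochberg adjustment at 0.05). The study's methods used DESeq2. With 3 tumours against 3, the smallest p of an exact permutation test on one gene is 0.1. CPM and CPM per kb of exon (GENCODE M21) were computed here. Spread was taken on log2 CPM with a prior count of 2. The Hedgehog genes, the 47 other pathway genes and the marker lists were chosen with earlier results of these data known. A gene of the pathway list is counted but not reported here. The genes named were the Hedgehog genes, every other pathway gene that passed the test and, for each role with 1 or no such gene, the 2 with the smallest p, and, for Gli1 and Ptch1, the 5 genes of most like profile; any other gene was named for its role, or as stated. Promoter windows came from RefSeq. Alternatives were DESeq2 1.42.0, limma 3.58.1 (voom with sample weights), other scalings and filters, sex as a covariate, leaving out the 10 most abundant genes, and each tumour left out. The scripts were tested on simulated data. Figures were drawn with matplotlib 3.10.9 in Python 3.11.15.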

Additional observations from a re-analysis of the deposited data

How the results depend on the processing

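Of the Hedgehog genes, 7 did not pass the test under any of the 14 alternatives, and Shh under none of the 12 that tested it (DESeq2 gave it no adjusted p). The number of genes called, 954 with edgeR, was 3653 with DESeq2, 2142 with limma voom, 1759 with no filter on low counts and 228 with sex as a covariate, and 22 to 1575 with each tumour left out in turn (22, 50 and 179 without Ivl:BRAFV600E tumours 1, 2 and 3 and 1575, 202 and 412 without Ivl:BRAFV600E-SOX2LSL tumours 1, 2 and 3). The number of other pathway genes called, 3 with edgeR, was 11 with DESeq2, 6 with limma voom and 1 with sex as a covariate, and 0 to 4 with each tumour left out. With each tumour left out the log2 fold change of Ptch1 was -0.23 to 0.035, of Gli2 -0.30 to 0.012 and of Sufu -0.23 to 0.076, so that the sign turned without Ivl:BRAFV600E tumour 3 (Ptch1 0.035, Gli2 0.012), and for Sufu without Ivl:BRAFV600E tumour 1 (0.00082) and Ivl:BRAFV600E-SOX2LSL tumour 1 (0.076). That of Cdon was -0.015 to 0.50 and turned without Ivl:BRAFV600E tumour 2 (-0.015). The cause was not tested. Gpc3 was called in 10 of the 14 alternatives, Ccnd2 in 8 and Arl13b in 6, in each case with the same direction in all 14. No paired analysis was possible because the columns carry none of the labels' replicate numbers. Depth limits Shh and Ihh, with at most 6 reads in any tumour.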

Other observations

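Genes whose log2 CPM followed Gli1 or Ptch1 most closely over the 6 tumours were sought among 14423 genes with a mean of at least 1 CPM. The 8 Hedgehog genes were left out of this search. Closeness was the root mean square difference of the profiles, each centred on its own mean. The nearest to Gli1 were B230362B09Rik (0.22 on the log2 scale), AU021092 (0.23), Rplp0-ps1 (0.29), 4732496C06Rik (0.29) and Tiaf2 (0.30). The nearest to Ptch1 were Zbed5 (0.06), Prmt9, Gm35638, Snrnp48 and Pcdhb19 (0.07 each). With 6 tumours and this many genes, some profiles lie close to any given one. None of the other pathway genes was among the 5 nearest of either, and the Hedgehog genes could not appear there.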
